A study of Homo sapiens with 37 samples.

Results

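Long noncoding RNAs that have been linked to growth arrest were followed here through human cells driven toward senescence, the lasting stop of division that damaged or worn-out cells enter. The 9 RNAs are MALAT1, NEAT1, MEG3, H19, MIR31HG, PVT1, GAS5, NORAD and LINC02154, and they were found by gene identifier, so that 9 of the 57773 identifiers in each count table were used. All 9 were listed in all 37 tables. HAEC, endothelial cells of the aorta (population doubling level, PDL, 4 to 6), gave 2 control libraries and 3 from cells given 4 Gy of ionizing radiation. HUVEC, endothelial cells of the umbilical vein (PDL 3 to 5), gave 3 of each at the same dose. IMR-90 lung fibroblasts gave 2 libraries each of proliferating cells at PDL 15, of cells given 10 Gy at PDL 15 and of cells exhausted by passage at PDL 52. WI-38 lung fibroblasts at PDL 25 gave 2 libraries each of untreated cells (Dox-) and of cells held in 2 µg/mL doxorubicin, a DNA-damaging drug, for 24 h (Dox+). In the same set, 2 libraries came from cells given a lentivirus carrying the HRAS oncogene with the G12V change and 2 from cells given an empty vector (EV), all 4 with 10 MOI of virus and 1 µg/mL puromycin. A second WI-38 set gave 2 libraries each of Dox- and Dox+ cells of a repeat experiment, of unirradiated (IR-) and 10 Gy cells at PDL 25, and of proliferating (PDL 25) and exhausted (PDL 53 to 55) cells. The labels give no time between irradiation and harvest.

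A long noncoding RNA is transcribed and often spliced like a messenger RNA but acts without being translated. MALAT1 and NEAT1 stay in the nucleus: MALAT1 gathers in nuclear speckles with splicing factors, and NEAT1 is the scaffold on which paraspeckles are built by proteins such as SFPQ and NONO. MEG3 and H19 are imprinted RNAs made from the maternal chromosome, beside the paternally expressed growth genes DLK1 and IGF2, and MEG3 is known for raising p53 activity. MIR31HG hosts miR-31, lies near CDKN2A and CDKN2B, which code for the cell-cycle inhibitors p16, ARF and p15, and is known for restraining CDKN2A. PVT1 lies beside MYC and is known for stabilising the MYC protein. GAS5 was found in growth-arrested cells, hosts small nucleolar RNAs (snoRNAs) in its introns, and is degraded in step with translation in dividing cells. NORAD is induced by DNA damage and holds Pumilio proteins such as PUM2, which otherwise repress messenger RNAs of mitosis. LINC02154 is a spliced RNA of the X chromosome of which little is known.

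NORAD shows in its own sequence how it can hold Pumilio. The Pumilio element TGTANATA was searched on the forward strand of the longest GENCODE release 29 transcript of each gene. The 5339-base, single-exon NORAD transcript holds 15 of them, 2.81 per kb, whereas 13.79% of 57133 genes hold at least 1 and 6 genes, NORAD included, hold at least 15. Of the 15, 10 read TGTATATA, 4 read TGTAAATA and 1 reads TGTACATA. NEAT1 holds 6, MEG3 holds 1 and the other 6 RNAs hold none. As examples from along the RNA, 4 of them are shown with 8 bases on either side, the element in capitals, 5′ to 3′, named by the element's first base in the transcript.
NORAD 761: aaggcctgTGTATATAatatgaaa
NORAD 1140: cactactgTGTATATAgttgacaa
NORAD 1241: tcacatttTGTAAATAcctttttg
NORAD 2972: ccctactgTGTATATAgcggacaa

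GAS5 and other snoRNA host genes are known for a start of pyrimidines, the mark of RNAs whose use follows growth signals. A start of C followed by at least 4 pyrimidines was searched at the first base of each GENCODE release 29 transcript, forward strand only. Such a start was found in 6 of the 29 transcripts of GAS5. Of the 12 other host genes that the transcript file holds, 9 had it in at least 1 transcript, beside 6.754% of all genes. A gene with many transcripts has more chances of a hit, as with 1 of 25 in SNHG1 and 1 of 24 in CCDC18-AS1. The share over all genes, not matched for transcript number, is therefore not a like background. The first 24 bases are shown with the opening pyrimidine run in capitals, so that the shared start of GAS5 and SNHG16 can be seen.
GAS5-210: CTTTTCgaggtaggagtcgactcc
SNHG16-204: CTTTTCgaggtcggccgcgtggct
SNHG5-202: CTTTTacgtcggccttcgcgagcg
ZFAS1-201: CTTTCgcgtctgcggtgcccggag

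MIR31HG carries the miRNA in its first intron, downstream of exon 1 of 4 and outside the exons. The mature miRNA is given from RefSeq (GRCh38.p14, chr9:21512158-21512178, minus strand) with its seed, bases 2 to 8, in capitals. It was not measured here, since the tables count long RNAs per gene.
hsa-miR-31-5p: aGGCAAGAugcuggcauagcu
The promoter of MIR31HG is shown because the RNA moved in opposite directions in different treatments. The RefSeq table gives chr9:21559749-21560048 on the minus strand (GRCh38.p14), around the start of the gene. It is 77.7% G and C, against a median of 58.7% over 35116 promoters, and holds 39 CpG pairs. GGGCGG or its reverse CCGCCC, in capitals, occurs 4 times, and 45% of all promoters hold at least 1. The AP-1 letters TGACTCA or TGAGTCA, held by 4.95% of promoters, do not occur in this window on either strand.
MIR31HG promoter: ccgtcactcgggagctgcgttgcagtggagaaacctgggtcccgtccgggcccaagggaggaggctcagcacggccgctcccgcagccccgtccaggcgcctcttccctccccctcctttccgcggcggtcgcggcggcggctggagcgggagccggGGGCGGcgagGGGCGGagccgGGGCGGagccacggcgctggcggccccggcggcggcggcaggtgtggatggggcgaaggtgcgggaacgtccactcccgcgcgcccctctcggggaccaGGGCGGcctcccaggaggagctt

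The first library kind, 25 libraries that leave out only the second WI-38 set, held 102293388 to 202974994 counts, and the second kind, the 12 of that set, 205854972 to 370996204. In the first kind 50.6% to 66.9% of counts fell in protein-coding genes and 0.1% to 0.607% in mitochondrial genes, and in the second kind 78.9% to 88.1% and 3.21% to 14%, so levels are compared only within a kind. The endothelial marker list had 10 of 10 genes at 1 CPM or more in the endothelial groups (summed 1563 to 2010 CPM) and 1 to 6 of 10 in the fibroblast groups (55.8 to 308 CPM). The fibroblast list had 10 of 10 in every fibroblast group (1688 to 15845 CPM) and 5 to 7 of 10 in the endothelial groups (156 to 292 CPM). These lists moved with some treatments. With HRAS all 10 fibroblast markers fell (median -2.32), from 7482 and 8651 to 1688 and 1853 summed CPM as the lowest and highest library, while 9 of 10 endothelial markers rose and 1 fell (median 2.44) and their sum went from 81 to 85.5 CPM in EV to 55.8 to 60.7 with HRAS. In IMR-90 9 of 10 fibroblast markers fell and 1 rose after 10 Gy (median -1.26), and 8 fell and 2 rose at PDL 52 (median -0.92). With doxorubicin in the first set 6 fibroblast markers rose and 0 fell. The part of these shifts in the changes below was not tested. None of the 7 epithelial and 6 leukocyte markers reached 1 CPM in endothelial groups, and at most 1 and 2 did in fibroblast groups. HRAS itself stood at 41.3 and 47.6 CPM in the EV libraries and 1731 and 1773 in the HRAS libraries. MKI67, a protein of dividing cells, is given only for the controls of the second WI-38 set and for irradiated IMR-90. A list of 16 mitosis genes is given for all 9 comparisons. These are bulk samples, in which fewer cells of a type and less RNA per cell cannot be told apart.

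Levels are CPM, read counts relative to the scaled library total, as mean ± SD where 2 values are not given. Compared per kb of exon over the control libraries, MALAT1 was the most abundant of the 9 in both kinds, with a median of 199 CPM per kb in the first and 1738 in the second. NORAD followed in the first kind with 68.1 CPM per kb, ahead of GAS5 with 45.3, whereas GAS5 with 158 came second in the second kind, ahead of NORAD with 28.9 and NEAT1 with 28. MIR31HG (8.92), NEAT1 (5.72), PVT1 (3.46) and MEG3 (2.95 CPM per kb) formed the middle of the first kind. LINC02154 (0.0357) and H19 (0.0192) were at the bottom, each resting on few reads in control cells. This order is of medians over 11 and 6 control libraries that differ among themselves: in the first kind NORAD ran from 29.5 to 94.5 CPM per kb, NEAT1 from 3.64 to 29.3 and MEG3 from 0.0455 to 7.64. In EV cells GAS5 (40.4) stood above NORAD (32.9) and NEAT1 (28.7) above MIR31HG (4.82), and in Dox- cells of the repeat NEAT1 (31) stood above NORAD (28.9). The order also depends on the length used, which joins the exons of all annotated transcripts of a gene. That length was 22.8 kb for NEAT1, 23.2 kb for MEG3 and 0.745 kb for MIR31HG. In CPM not divided by length, control medians of the first kind were 130 for NEAT1, 68.4 for MEG3 and 6.64 for MIR31HG.

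**Figure D1:**
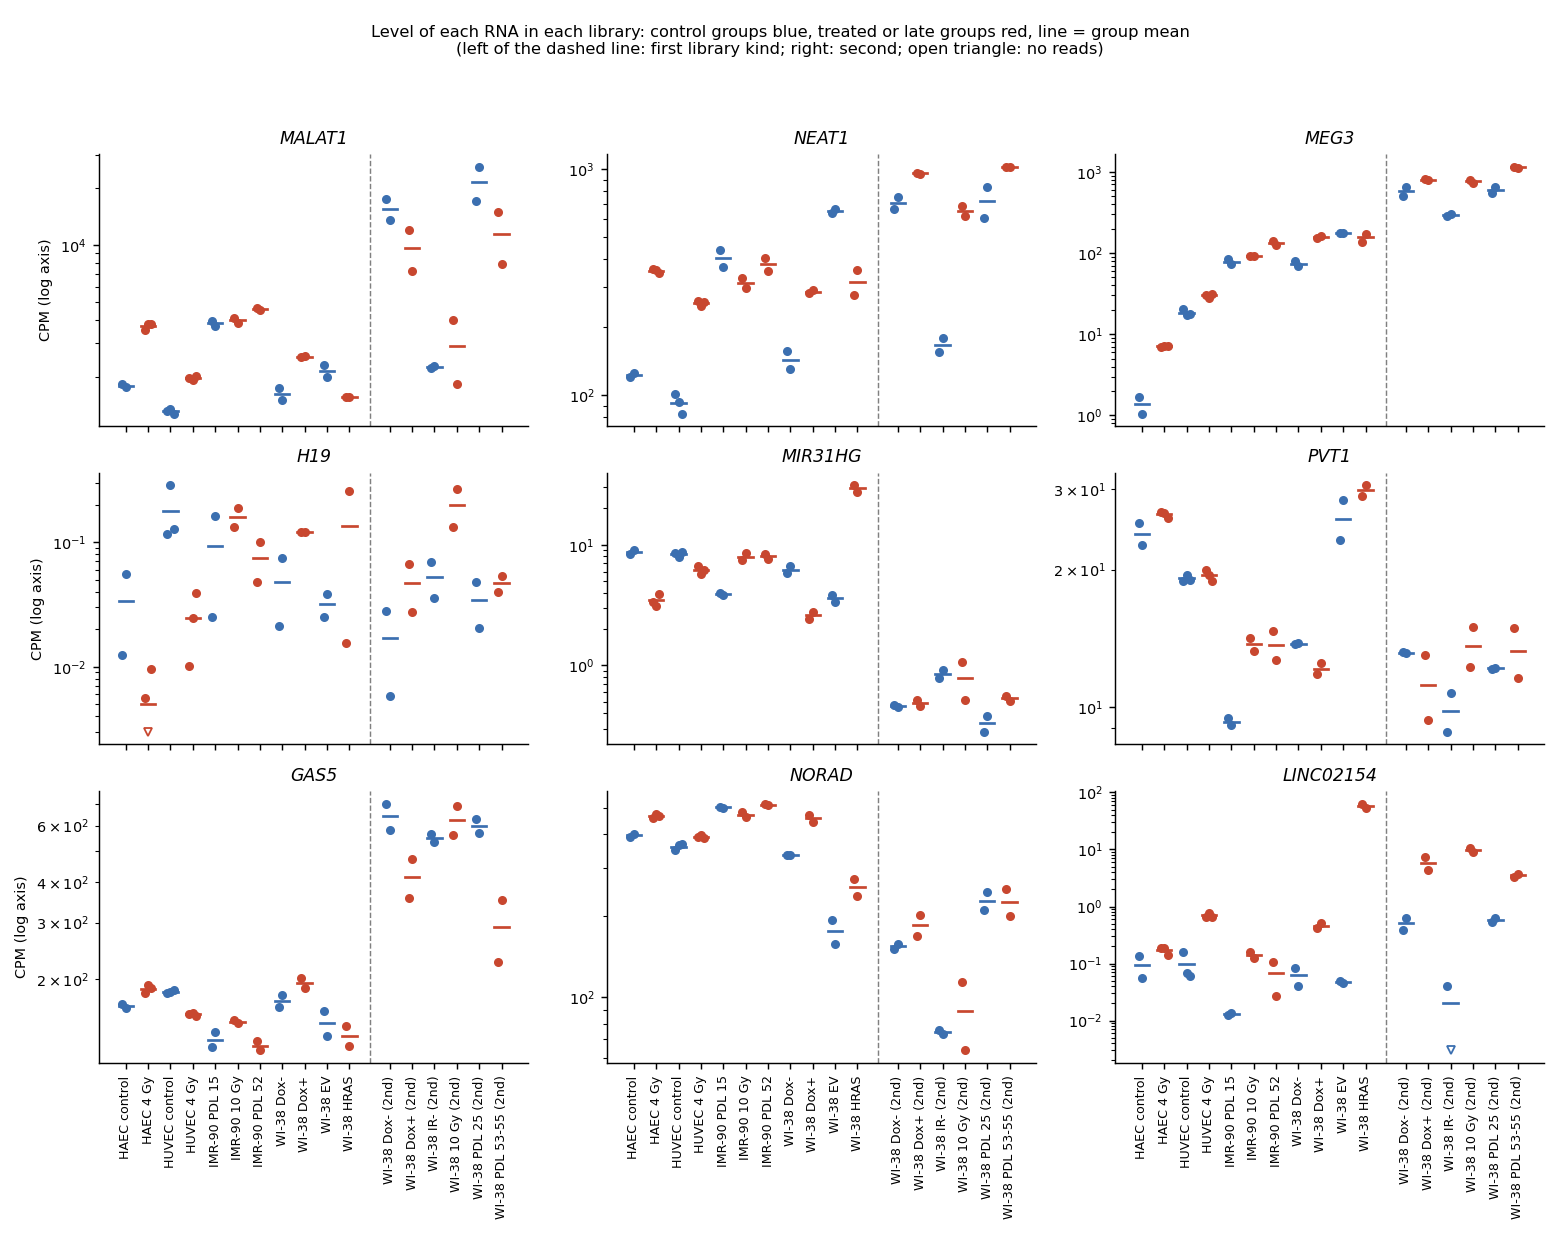
Level of each RNA in each of the 37 libraries (CPM, log axis, axes differ by panel), with control groups in blue, treated or late groups in red, group means as lines and libraries without reads as open triangles at the bottom. LINC02154 spans from no reads to 63.3 CPM in a library with HRAS, while GAS5 stays between 120 and 202 CPM in the first library kind, left of the dashed line.

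The control cells already differed by cell kind. In a fit over the 25 libraries of the first kind, the untreated fibroblasts (IMR-90 PDL 15 and WI-38 Dox-) were set against control HAEC and HUVEC, where 58.2% of 34083 genes were called, 30.5% higher in fibroblasts and 27.8% lower. Of the 9 RNAs 3 were higher and 4 lower. MEG3 was 3.90 ± 0.10 (log2 ± SE, q = 1.98e-21) higher in fibroblasts, NEAT1 1.17 ± 0.08 and MALAT1 0.70 ± 0.05. Here q is the p of edgeR's quasi-likelihood test adjusted by the Benjamini-Hochberg method over all genes. PVT1 (-0.92 ± 0.06), MIR31HG (-0.80 ± 0.08), GAS5 (-0.22 ± 0.06) and LINC02154 (-1.79 ± 0.47) were lower in fibroblasts, and without HAEC control replicate 1 LINC02154 no longer passed (-1.35, q = 0.0660). NORAD (0.12 ± 0.05, q = 0.0656) and H19 (-0.17 ± 0.74) did not pass. Medium and cell kind cannot be told apart in this comparison. The strains of a kind also differed. MALAT1 stood at 3833 CPM in IMR-90 but 1626 in WI-38, between HAEC (1794) and HUVEC (1309). NEAT1 stood at 404 CPM in IMR-90 and 144 in WI-38, against 123 in HAEC and 92.5 in HUVEC. GAS5 in WI-38 (172 CPM) lay between HAEC (165) and HUVEC (183), with IMR-90 at 130. The SE and q cover spread between libraries, not between strains of a kind.

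Each treated group was then tested against its own control. After 4 Gy in HAEC, 5 of 8 tested RNAs rose and 1 fell, where 39.7% of 28024 genes were called, 19.7% higher and 19.9% lower. In HUVEC 5 of 9 rose and 3 fell, beside 18.7% and 20.1% of all genes (38.7% in all). IMR-90 cells had 5 higher and 1 lower after 10 Gy (26.6% and 22.5% of all genes, 49.1% in all) and 4 higher and 0 lower at PDL 52 (26.6% and 23.5%, 50.1% in all). Both IMR-90 comparisons share their 2 control libraries. In irradiated IMR-90 the count of 6 fell to 3 without PDL 15 replicate 1, without irradiated replicate 1 or without irradiated replicate 2. In WI-38, doxorubicin gave 5 higher and 1 lower in the first set (13.6% and 13.2%, 26.8% in all) and 1 higher and 0 lower in the repeat (3.18% and 2.26%, 5.45% in all). With HRAS 3 rose and 2 fell, where 27.1% of all genes rose and 18.9% fell (45.9% in all). That balance depends on scaling: 7957 genes rose and 5539 fell in the fit used here, and 5276 rose and 7927 fell when libraries were scaled on protein-coding genes alone. In the second set, 10 Gy gave 3 higher and 0 lower (8.89% and 6.09%, 15% in all), and exhaustion at PDL 53 to 55 gave 2 higher and 1 lower (5.8% and 6.82%, 12.6% in all). That last count of 3 became 1 without proliferating replicate 1. The spread between replicates was 5.69% in HAEC and 6.94% in HUVEC but 38.1% in the second WI-38 set, so smaller changes could be called in endothelium.

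**Figure D2:**
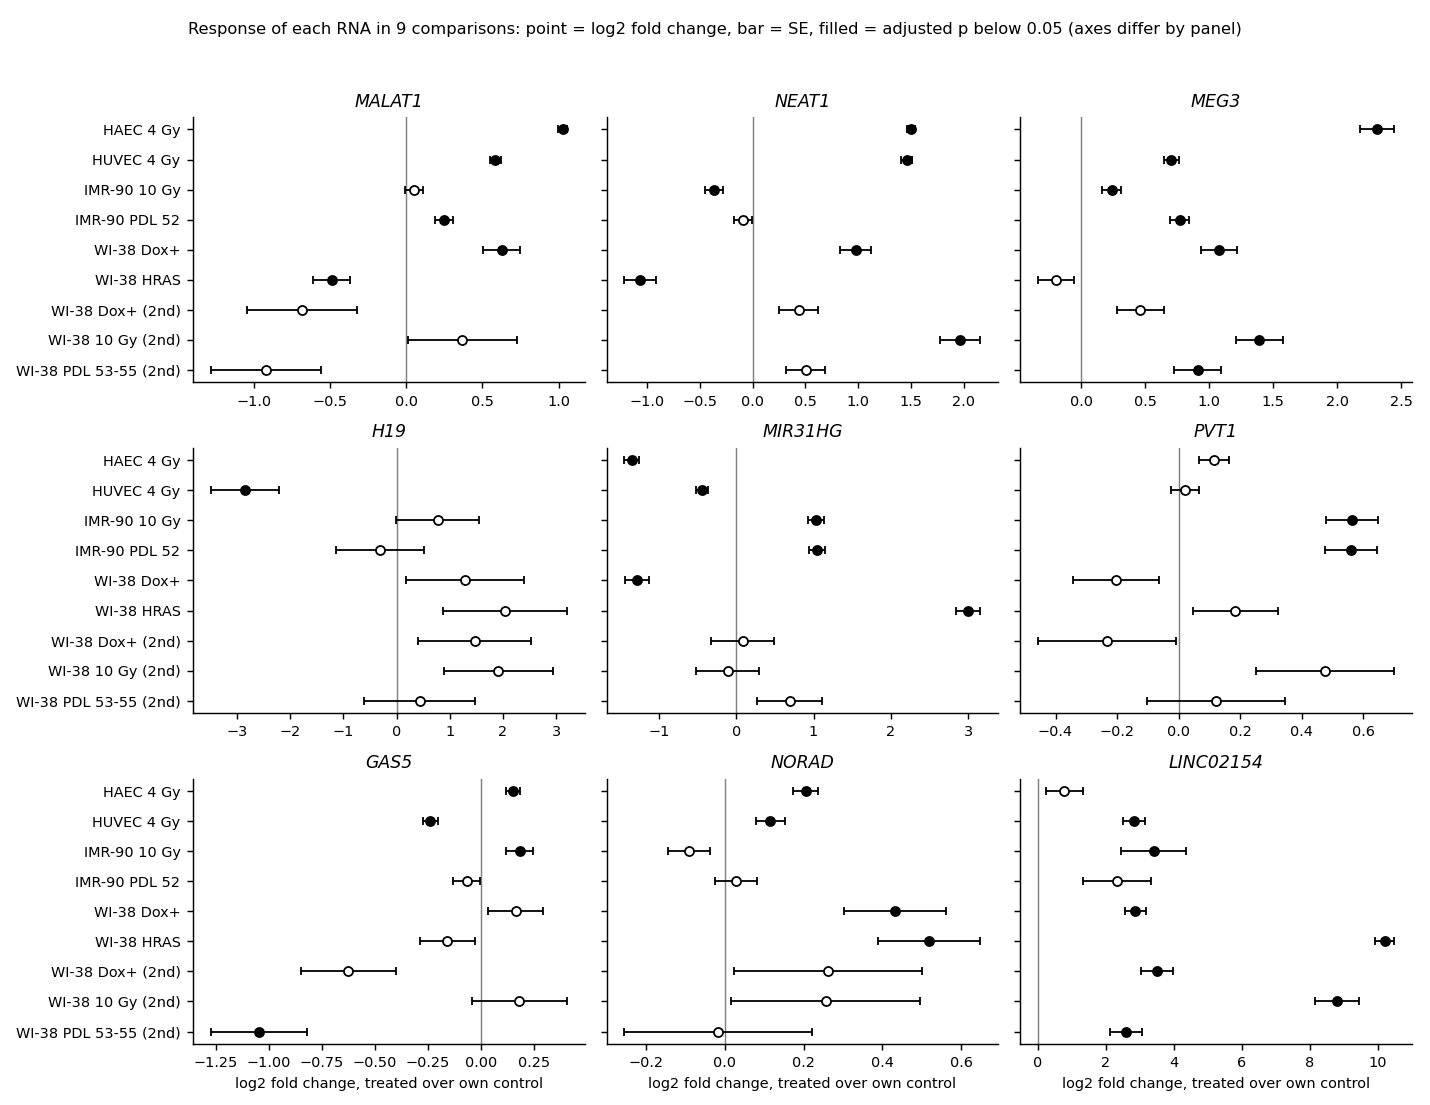
Log2 fold change of each RNA (point) with its SE (bar) in the 9 comparisons, filled where the adjusted p is below 0.05; horizontal axes differ by panel and H19 was not tested in HAEC. LINC02154 lies to the right of 0 in all 9, from 0.78 to 10.19, while MIR31HG and NEAT1 have filled points on both sides.

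LINC02154 (ENSG00000235385, chromosome X) had the largest fitted change of the 9 RNAs in the 7 fibroblast comparisons (6 of them called), whereas in HAEC it was not called and in HUVEC the fall of H19 was of like size (-2.85 against 2.82). It rose in 7 of 9 comparisons, as did MEG3, where 0.865% of the 37009 genes tested in any comparison, 320 genes, were called higher in at least 7. Both RNAs were tested in all 9, as were 23667 genes, so the share over 37009 is not a like background. The 2 IMR-90 comparisons share controls. The RNAs were chosen with earlier results of these data known, so the share is no test of them. With HRAS LINC02154 went from 0.0502 and 0.0459 CPM in the EV libraries to 63.3 and 53.2 CPM, the highest level in the first kind. The fitted change was 10.19 ± 0.27 on the log2 scale (q = 7.73e-10), and in raw reads 14 over both EV libraries stood against 14074, a ratio of rates of 986 with a 95% interval of 588 to 1800 that covers counting error only. Doxorubicin raised it far less, from 0.0845 and 0.0409 CPM to 0.413 and 0.512 (2.86 ± 0.31, q = 2.96e-05). The response to HRAS exceeded that to doxorubicin by 7.33 ± 0.59 (q = 2.80e-06).

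In the second WI-38 set LINC02154 was called in all 3 comparisons. Irradiated cells held 10.5 and 9.16 CPM, whereas the IR- control libraries held 0.0405 CPM and no reads at all. A count of 0 allows up to 3 reads, so the fitted change of 8.79 ± 0.65 (q = 7.00e-07) rests on the 14 reads of 1 control library and moved to 7.92 without the library at 0 and 14.55 without the other. In raw reads the ratio was 398, with an interval of 237 to 729. The doxorubicin repeat took LINC02154 from 0.391 and 0.636 to 7.26 and 4.45 CPM (3.51 ± 0.47, q = 0.000527), and exhaustion from 0.534 and 0.641 to 3.29 and 3.75 CPM (2.59 ± 0.46, q = 0.00167). All treated libraries of the set therefore lay above all its controls, and the 3 untreated control groups themselves lay from 0.0202 ± 0.0286 to 0.588 ± 0.0759 CPM (n = 2 each). The difference between irradiation and exhaustion, 6.2 ± 0.75 (q = 0.000146), holds that spread between controls too.

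In endothelium LINC02154 rose in HUVEC, from 0.161, 0.0685 and 0.0614 CPM to 0.654, 0.779 and 0.656 (2.82 ± 0.32, q = 1.08e-07). In HAEC it stood at 0.137 and 0.0556 CPM in controls and 0.191, 0.185 and 0.144 after the same dose (0.78 ± 0.53, q = 0.280). The HUVEC response was larger by 2.06 ± 0.58 (q = 0.0129), but without HAEC control replicate 1 the difference was 1.19 (q = 0.394). In IMR-90 the control libraries held 2 reads each, and irradiated cells 31 and 20. The ratio of rates was 9.44 with a counting interval of 3.47 to 36, and the call (3.40 ± 0.96, q = 0.00893) was lost without either control library (3.35, q = 0.0661, and 3.45, q = 0.0588) and without irradiated replicate 1 (3.19, q = 0.0690). At PDL 52 the reads were 18 and 4 (2.33 ± 1.00, q = 0.0679), and the change passed without PDL 52 replicate 2 (2.98, q = 0.0271) and when all 25 libraries shared 1 spread (2.36, q = 0.0267).

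MIR31HG (ENSG00000171889, chromosome 9) rose in 3 comparisons and fell in 3. With HRAS it went from 3.83 and 3.35 CPM to 31.1 and 27.4 (3.00 ± 0.16, q = 3.79e-08), above every other library of the first kind. Doxorubicin lowered it in the same strain, from 5.81 and 6.64 to 2.42 and 2.77 CPM (-1.28 ± 0.15, q = 7.06e-05), and the 2 responses differed by 4.28 ± 0.22 (q = 8.39e-08). In IMR-90 it rose from 3.96 and 3.81 CPM at PDL 15 to 7.43 and 8.48 after 10 Gy (1.03 ± 0.10) and to 8.41 and 7.65 at PDL 52 (1.05 ± 0.10). Those 2 IMR-90 groups overlapped each other and differed by -0.01 ± 0.10 (q = 0.960).

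Irradiation lowered MIR31HG in both endothelial kinds. HAEC fell from 8.44 and 8.97 CPM to 3.37, 3.08 and 3.92 (-1.35 ± 0.10, q = 3.04e-10), and HUVEC from 8.54, 7.96 and 8.77 to 6.70, 5.73 and 6.15 CPM (-0.45 ± 0.07, q = 2.54e-05). The fall was smaller in HUVEC by 0.91 ± 0.12 (q = 2.76e-06). In the second WI-38 set the RNA stayed between 0.281 and 1.06 CPM in all 12 libraries and no change passed (-0.11 ± 0.41 after 10 Gy, 0.08 ± 0.41 with doxorubicin, 0.69 ± 0.42 at exhaustion). Exons of MIR31HG overlap a pseudogene on the opposite strand along 40.7% of their length. Whether strand was used in counting is not given in the sources used here, so reads of the 2 cannot be told apart there.

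The cell-cycle inhibitors near MIR31HG were followed beside it. With HRAS, CDKN2B rose from 9.15 ± 1.56 to 117 ± 9.27 CPM (n = 2 each, 3.66 log2) and CDKN2A from 13.3 ± 1.84 to 64.3 ± 0.117 (2.25 log2). In IMR-90 both rose too, CDKN2A by 1.64 after 10 Gy and 2.54 at PDL 52, CDKN2B by 0.27 and 0.84. With doxorubicin in the first set both rose (0.53 and 1.03) while MIR31HG fell. In HUVEC CDKN2A rose by 1.31 and CDKN2B by 0.45 while MIR31HG fell. In HAEC CDKN2A stood at -0.01 (q = 0.927) and CDKN2B rose by 0.27. The inhibitor genes and the lncRNA thus moved the same way in 3 of these comparisons and in opposite ways in the doxorubicin and HUVEC ones. In HAEC, where MIR31HG fell, CDKN2B went the opposite way and CDKN2A was not called. The second WI-38 set, where MIR31HG was not called, is left out of this tally.

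MEG3 (ENSG00000214548, chromosome 14) rose in 7 of 9 comparisons and fell in none. Its largest change was in HAEC, where it is scarce, from 1.69 and 1.06 CPM to 6.93, 7.23 and 7.15 (2.31 ± 0.13, q = 9.06e-12). In HUVEC it rose from 20.3, 17.5 and 17.6 to 30.7, 28 and 31.7 CPM (0.70 ± 0.06), a response smaller by 1.60 ± 0.14 (HUVEC minus HAEC -1.60, q = 1.08e-09). In neither kind did treated and control libraries overlap. Among fibroblasts of the first kind it rose with doxorubicin from 80 and 68.4 to 153 and 164 CPM (1.08 ± 0.14, q = 0.000155) and at PDL 52 in IMR-90 from 83.4 and 72.6 to 140 and 126 CPM (0.77 ± 0.07).

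Irradiation of IMR-90 moved MEG3 only to 92.9 and 90.9 CPM (0.24 ± 0.07, q = 0.0145), which was 0.53 ± 0.07 less than at PDL 52 (q = 0.000389). That small call was lost without PDL 15 replicate 2 (0.14, q = 0.162), without either irradiated library (0.23, q = 0.0919, and 0.26, q = 0.0568), with protein-coding scaling (0.14, q = 0.122) and when all 25 libraries shared 1 spread (0.24, q = 0.146). In the second WI-38 set MEG3 rose after 10 Gy from 282 and 299 to 791 and 735 CPM (1.39 ± 0.18, q = 0.000135) and at exhaustion from 546 and 659 to 1152 and 1113 CPM (0.91 ± 0.18, q = 0.00400). The latter call was lost without proliferating replicate 1 (0.82, q = 0.0855). HRAS cells held 137 and 174 CPM against 177 and 174 in EV (-0.20 ± 0.14, q = 0.273), a value that became -0.50 (q = 0.0143) with protein-coding scaling, under which the median of all genes moved from 0.07 to -0.22.

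H19 (ENSG00000130600, chromosome 11) was close to the limit of detection. Its counts ran from 0 to 90 per library. It fell in HUVEC from 0.117, 0.285 and 0.128 CPM to 0.0102, 0.0245 and 0.0390 (-2.85 ± 0.63, q = 0.000735), that is, from 24, 50 and 25 reads to 2, 4 and 6. In HAEC it had at most 6 reads per library and was not tested. In the other 7 comparisons its change ranged from -0.32 to 2.04, none called. With HRAS, where it had 2 and 28 reads against 4 and 5 in EV, it passed without HRAS replicate 1 (2.98, q = 0.0401).

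The neighbours of these imprinted RNAs were followed beside them. IGF2, a growth factor beside H19, rose in IMR-90 from 1.52 ± 0.0649 CPM (n = 2) to 18.6 ± 0.00667 after 10 Gy (3.61 log2) and 26.6 ± 1.04 at PDL 52 (4.13 log2), while H19 was not called. H19 had 4 and 24 reads in those control libraries, too few to tell whether it moved with IGF2. IGF2 fell in irradiated WI-38 (-2.72) and rose at exhaustion (1.25). DLK1, beside MEG3, was tested in 7 comparisons and called in 1, lower at PDL 52 in IMR-90 (-0.92, q = 0.0114), where MEG3 rose. Of 18 imprinted genes, 9 of 16 tested rose and 1 fell in HAEC (median 0.25, all genes 0.01), and 8 rose and 5 fell in HUVEC. With doxorubicin 6 rose and 1 fell in the first set and 2 rose and 1 fell in the repeat, and with HRAS 4 rose and 4 fell. In the other comparisons falls were more numerous, with 5 higher and 7 lower in irradiated IMR-90, 7 and 8 at PDL 52, 1 and 7 in irradiated WI-38 and 3 and 5 at its exhaustion (median -0.46). PEG10, expressed from the paternal allele, fell in 6 comparisons, by 2.59 at exhaustion of WI-38 and by 1.11 in HAEC. KCNQ1OT1, an imprinted antisense RNA, fell in 5, by 1.22 with HRAS and by 1.09 in irradiated IMR-90, and rose in both endothelial kinds (0.44 and 0.39).

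NEAT1 (ENSG00000245532, chromosome 11) rose in both endothelial kinds. HAEC controls held 121 and 126 CPM and irradiated cells 361, 357 and 346 (1.5 ± 0.04, q = 1.20e-17). HUVEC went from 102, 93.1 and 83 to 261, 248 and 257 CPM (1.46 ± 0.05, q = 6.99e-17), and the difference between kinds was -0.04 ± 0.07 (q = 0.8). Every irradiated library thus lay above every control of its kind. In irradiated WI-38 it rose from 156 and 179 to 688 and 621 CPM (1.97 ± 0.19, q = 7.92e-06), a mean of 655 that lay below those of the set's other untreated controls (707 and 721 CPM). Doxorubicin in the first set raised it from 157 and 130 to 282 and 291 CPM (0.98 ± 0.15, q = 0.000406).

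NEAT1 fell with HRAS, from 640 and 667 CPM in EV cells to 277 and 357 (-1.07 ± 0.15, q = 0.000101). The EV cells held the highest NEAT1 of the first kind, while untreated Dox- cells of the same strain and PDL held 144 ± 18.8 CPM (n = 2), so the HRAS cells lay below EV and above Dox-. EV cells also held more MEG3 (176 ± 2.18 against 74.2 ± 8.15 CPM) and PVT1 (25.8 ± 3.63 against 13.8 ± 0.0469) and less NORAD (175 ± 25.5 against 334 ± 0.261) than Dox- cells, with no overlap. Also without overlap, they held more MALAT1 (2148 ± 219 against 1626 ± 178 CPM) and less MIR31HG (3.59 ± 0.337 against 6.22 ± 0.592) and GAS5 (147 ± 18.7 against 172 ± 10.5). The part of virus and puromycin in this was not tested. The response to HRAS lay 2.04 ± 0.21 below that to doxorubicin (HRAS minus doxorubicin -2.04, q = 1.83e-05). In IMR-90 NEAT1 fell after 10 Gy from 440 and 369 to 331 and 299 CPM (-0.36 ± 0.09, q = 0.00299), a call lost without PDL 15 replicate 1 (-0.22, q = 0.0613) or irradiated replicate 2 (-0.28, q = 0.0595), and stood at -0.09 ± 0.09 at PDL 52 (q = 0.403). In the repeat with doxorubicin (0.44 ± 0.19, q = 0.210) and at exhaustion of WI-38 (0.50 ± 0.19, q = 0.0963) it did not pass, although both treated libraries exceeded both controls. DESeq2 called it at exhaustion (0.52, q = 0.0398).

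No listed gene for a paraspeckle protein was called higher where NEAT1 was called higher. The same held in the doxorubicin repeat and at exhaustion of WI-38, where NEAT1 was not called. These are RNA counts, and protein was not measured. Of 12 listed genes 9 fell and 0 rose in HAEC (median -0.19, all genes 0.01), and the same numbers held in HUVEC. With doxorubicin 10 fell and 0 rose (median -0.61), in irradiated WI-38 4 fell and 0 rose, and with HRAS, where NEAT1 fell, 5 fell and 1 rose. SFPQ, a core paraspeckle protein, fell in 7 of 9 comparisons, by 0.08 in HAEC and 0.11 in HUVEC but by 1.07 with doxorubicin and 0.88 with HRAS. NONO, its partner, fell in IMR-90 (-0.48 and -0.51) and with doxorubicin (-0.53). NUDT21, which helps choose the 3′ end that decides between short and long NEAT1, fell in 6. The count tables give 1 value per gene, so the 2 forms of NEAT1 were not separated.

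**Figure D3:**
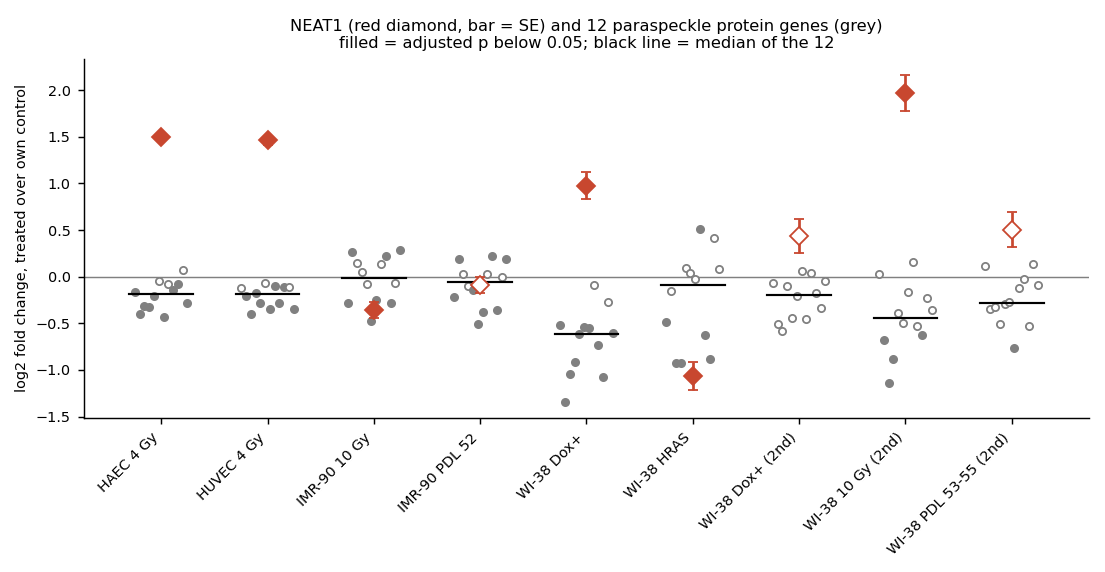
Log2 fold change of NEAT1 (red diamond, bar = SE) beside 12 paraspeckle protein genes (grey) in 9 comparisons, filled where the adjusted p is below 0.05, with the median of the 12 as a black line. NEAT1 stands above the line in both endothelial comparisons (1.5 and 1.46) and below it with HRAS (-1.07).

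MALAT1 (ENSG00000251562, chromosome 11) rose most in HAEC. Control libraries held 1830 and 1758 CPM and irradiated ones 3539, 3798 and 3796 (1.03 ± 0.03, q = 9.02e-17). In HUVEC it rose from 1311, 1342 and 1275 to 1964, 1926 and 2015 CPM (0.58 ± 0.04, q = 2.10e-12), less than in HAEC (HUVEC minus HAEC -0.44 ± 0.05, q = 2.86e-08). With doxorubicin it rose from 1752 and 1500 to 2536 and 2561 CPM (0.63 ± 0.12, q = 0.00231). In the repeat both treated libraries, 11963 and 7287 CPM, lay below both controls, 17359 and 13563 CPM, and the change did not pass (-0.68 ± 0.36, q = 0.326). At PDL 52 in IMR-90 it rose from 3965 and 3700 to 4600 and 4525 CPM (0.25 ± 0.06, q = 0.00247), and after 10 Gy it stood at 0.05 ± 0.06 (q = 0.484). With HRAS it fell from 2302 and 1993 CPM in EV to 1559 and 1555 CPM (-0.49 ± 0.12, q = 0.00599), opposite to doxorubicin (difference -1.11 ± 0.17, q = 0.000373). The HRAS libraries lay between the untreated Dox- libraries (1752 and 1500 CPM), and the EV libraries lay above them.

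The second WI-38 set gave no call for MALAT1, and its untreated controls lay far apart. Proliferating cells held 17126 and 25859 CPM, Dox- cells of the repeat 17359 and 13563, and IR- cells 2232 and 2270, all at PDL 25. Irradiated cells held 3990 and 1823 CPM, on both sides of their own controls (0.37 ± 0.36, q = 0.531). Exhausted cells held 14852 and 7893 CPM (-0.92 ± 0.36, q = 0.120). Without exhausted replicate 1 this became -1.40 (q = 0.0265), and without a filter on low counts it was called at the same value (-0.92, q = 0.00219). The IR- cells were also lowest of the 3 control groups for NEAT1 (167 ± 16.3 CPM against 707 ± 61.3 and 721 ± 155 in Dox- and proliferating cells), NORAD (74.5 ± 1.7 against 154 ± 4.12 and 227 ± 25), MEG3 (291 ± 12.1 against 579 ± 111 and 602 ± 79.9) and LINC02154, with n = 2 in each. MKI67 went the other way, with 201 ± 17.1 CPM in IR- cells against 36.2 ± 11 and 42.2 ± 5.97. Its part in the levels of the RNAs was not tested. Within the irradiated group, replicate 2 held 14% of its counts in mitochondrial genes, the largest share of the 12 libraries. It held less MALAT1, NORAD, MIR31HG, NEAT1, MEG3 and LINC02154 than replicate 1, and more GAS5, PVT1 and H19.

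**Figure D4:**
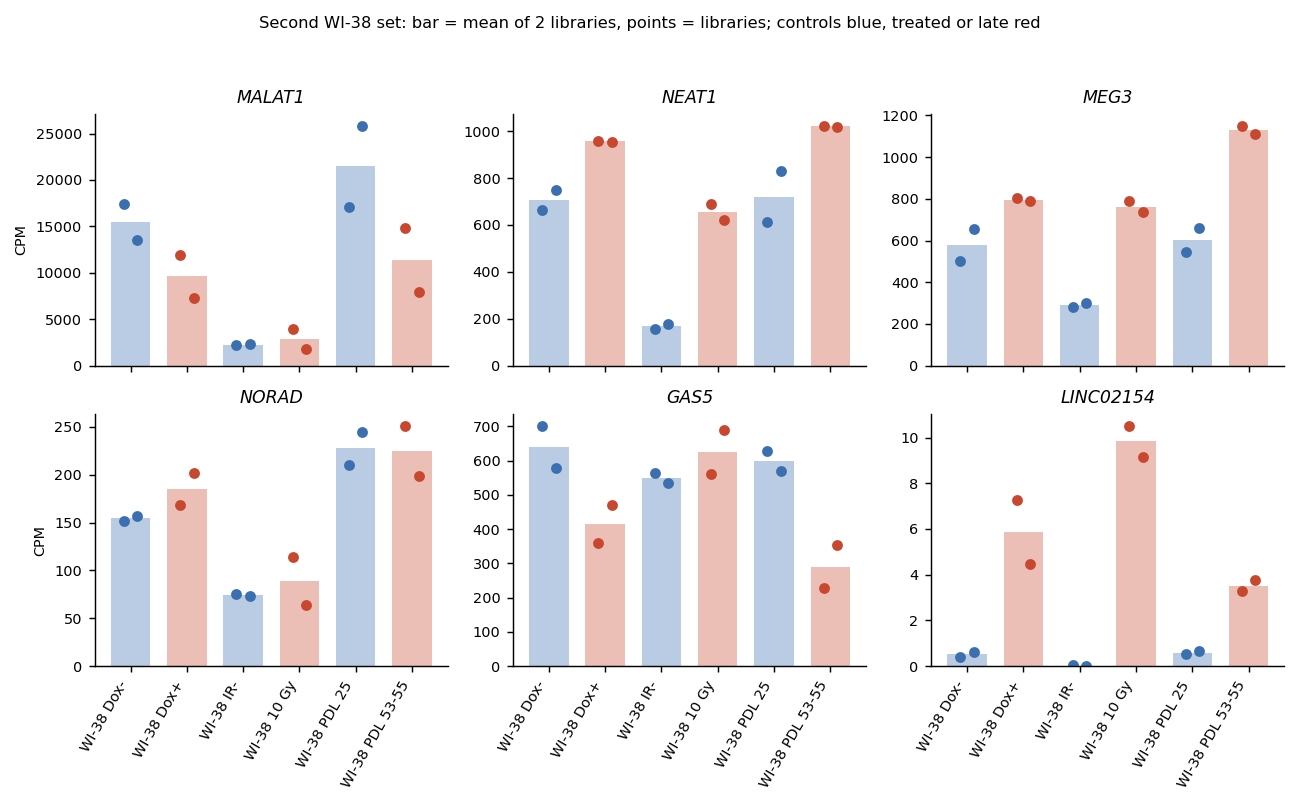
Level (CPM) of 6 RNAs in the second WI-38 set, bars for the mean of 2 libraries and points for the libraries, controls in blue and treated or late cells in red. The IR- bar is the lowest control bar for MALAT1, NEAT1, MEG3, NORAD and LINC02154, while GAS5 differs little among the 3 controls (550 to 640 CPM).

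Genes for splicing factors of the speckles, where MALAT1 resides, fell more often than they rose in endothelium and with doxorubicin. Of 12 listed genes 8 fell in HAEC and 9 in HUVEC, with 0 and 1 higher, and 6 fell and 0 rose with doxorubicin. In irradiated IMR-90 2 rose and 2 fell, at PDL 52 1 rose and 3 fell, and with HRAS and in irradiated WI-38 1 rose and 2 fell in each. In the doxorubicin repeat 1 fell and 0 rose, and at exhaustion of WI-38 2 fell and 0 rose. SRSF3 fell in 5 comparisons, by 1.06 with doxorubicin and 1.00 in irradiated WI-38. SRSF2 fell in 5, by 1.32 with doxorubicin and 0.55 in HAEC.

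GAS5 (ENSG00000234741, chromosome 1) moved little in cells of the first kind. HAEC rose from 168 and 163 to 181, 192 and 188 CPM (0.15 ± 0.03, q = 0.000727), while HUVEC fell from 181, 183 and 185 to 156, 157 and 154 (-0.24 ± 0.03, q = 3.31e-06). The groups did not overlap in either kind, and the 2 responses differed (HUVEC minus HAEC -0.39 ± 0.05, q = 2.42e-07). When all 25 libraries shared 1 spread, the HAEC change no longer passed (0.18, q = 0.115). In irradiated IMR-90 the change was 0.18 ± 0.06 (q = 0.0266), lost without PDL 15 replicate 1 (0.11, q = 0.206), without either irradiated library (0.17, q = 0.154, and 0.20, q = 0.0907) with protein-coding scaling (0.09, q = 0.238) or when all 25 libraries shared 1 spread (0.18, q = 0.0921). With doxorubicin (0.16 ± 0.13, called in a fit of the Dox- and Dox+ libraries alone at 0.17, q = 0.0408), at PDL 52 (-0.07 ± 0.06) and with HRAS (-0.16 ± 0.13) it did not pass, though with protein-coding scaling it was called lower with HRAS (-0.45, q = 0.0128) and at PDL 52 (-0.16, q = 0.0481).

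The largest GAS5 change was at exhaustion of WI-38. It fell from 628 and 569 CPM in proliferating cells to 227 and 352 (-1.05 ± 0.23, q = 0.00659). Leaving out exhausted replicate 1 (-0.72, q = 0.0729) or proliferating replicate 1 (-0.93, q = 0.0708) ended the call. Irradiated cells, in contrast, held 560 and 688 CPM against 565 and 535 (0.18 ± 0.22, q = 0.629). The responses differed by 1.23 ± 0.32 (q = 0.0322), a call that leaving out 6 of the 8 libraries, 1 at a time, ended. In the doxorubicin repeat both treated libraries (359 and 471 CPM) lay below both controls (701 and 579), but the change did not pass (-0.63 ± 0.22, q = 0.131).

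Other snoRNA host genes, most of them with a pyrimidine start in at least 1 transcript, were followed as a list of 13. In HUVEC 10 fell and 2 rose (median -0.30, all genes 0.01), and in HAEC 8 fell and 3 rose (median -0.24), so GAS5 fell with the majority in HUVEC and rose against it in HAEC. At exhaustion 3 fell and 0 rose (median -0.42), and in irradiated WI-38 0 fell and 4 rose (median 0.61). In irradiated IMR-90 7 rose and 4 fell (median 0.16), at PDL 52 4 rose and 6 fell, with doxorubicin 3 rose and 3 fell in the first set and 0 rose and 1 fell in the repeat, and with HRAS 3 rose and 1 fell. SNHG1 fell in HAEC (-0.67), HUVEC (-0.76), with doxorubicin (-1.27) and at exhaustion (-0.92), and rose in irradiated IMR-90 (0.59). EPB41L4A-AS1 fell in 5 comparisons, by 0.95 at PDL 52 in IMR-90 and 0.89 at exhaustion of WI-38, and rose in irradiated WI-38 (0.67). SNHG16 and ZFAS1 both fell in HUVEC (-0.37 and -0.22), but in HAEC SNHG16 fell (-0.24) and ZFAS1 rose (0.22).

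**Figure D5:**
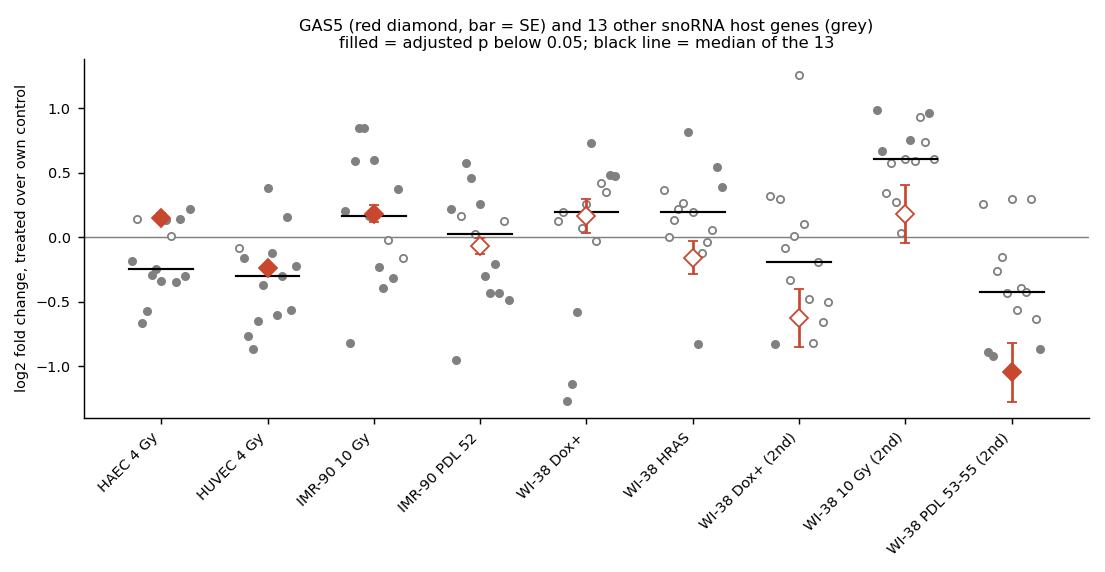
Log2 fold change of GAS5 (red diamond, bar = SE) beside 13 other snoRNA host genes (grey) in 9 comparisons, filled where the adjusted p is below 0.05, with the median of the 13 as a black line. GAS5 is above the line in HAEC (0.15 against -0.24) and below it at exhaustion of WI-38 (-1.05 against -0.42).

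NORAD (ENSG00000260032, chromosome 20) rose in 4 comparisons, by small amounts. HAEC went from 391 and 401 to 457, 472 and 465 CPM (0.20 ± 0.03, q = 1.61e-05) and HUVEC from 350, 363 and 366 to 391, 395 and 386 (0.12 ± 0.04, q = 0.0120). The HUVEC call was lost without irradiated replicate 1 (0.11, q = 0.0682) and when all 25 libraries shared 1 spread (0.12, q = 0.231). With doxorubicin it rose from 334 and 334 to 469 and 445 CPM (0.43 ± 0.13, q = 0.0270), and leaving out any 1 of these 4 libraries ended the call (0.40 to 0.44, q of 0.133 to 0.186). With HRAS it rose from 194 and 157 to 274 and 237 CPM (0.52 ± 0.13, q = 0.00598), lost without HRAS replicate 1 (0.43, q = 0.0659), in a fit of the EV and HRAS libraries alone (0.38, q = 0.132) and with protein-coding scaling (0.22, q = 0.180). IMR-90 stood at -0.09 ± 0.05 after 10 Gy and 0.03 ± 0.05 at PDL 52, with 463 to 517 CPM in all 6 libraries. After 10 Gy it was called lower with protein-coding scaling (-0.18, q = 0.0115). In the second WI-38 set no change passed (0.26 ± 0.24, 0.26 ± 0.24 and -0.02 ± 0.24).

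The genes that NORAD is known to work with were lower where they were called, except with HRAS and in IMR-90. PUM2 fell by 0.18 in HAEC, 0.14 in HUVEC, 0.25 in irradiated IMR-90 and 0.27 at PDL 52 and rose by 0.51 with HRAS (q = 0.0313). RBMX, an RNA-binding protein reported on NORAD, fell in 8 of 9, from -0.27 in irradiated IMR-90 to -1.13 with doxorubicin. KHDRBS1, the RNA-binding protein SAM68, fell in 7. Of the 8 listed genes matched, 6 fell and 0 rose in HAEC, HUVEC and with doxorubicin, 2 fell and 3 rose with HRAS, and in IMR-90 4 fell and 2 rose after 10 Gy and 5 fell and 1 rose at PDL 52. EPB41L1, a neighbour of NORAD, rose in 7 comparisons, by 1.34 in HAEC and 0.32 in irradiated IMR-90.

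PVT1 (ENSG00000249859, chromosome 8) rose only in the 2 IMR-90 comparisons, from 9.44 and 9.11 CPM at PDL 15 to 14.1 and 13.3 after 10 Gy (0.56 ± 0.08, q = 7.10e-05) and to 14.7 and 12.7 at PDL 52 (0.56 ± 0.09, q = 7.79e-05). These treated groups overlapped each other and not their shared control. In HAEC it stood at 0.11 ± 0.05 (q = 0.0727) and passed without control replicate 1 (0.19, q = 0.0156). In HUVEC the change was 0.02 ± 0.05, and in WI-38 it ranged from -0.23 ± 0.22 to 0.47 ± 0.22, with no call. MYC, the oncogene beside it, rose with HRAS from 8.33 ± 0.081 to 21.5 ± 0.245 CPM (1.35 log2) while PVT1 stood at 0.18 ± 0.14 (q = 0.301). In IMR-90, where PVT1 rose, MYC was at 0.04 (q = 0.807) after 10 Gy and fell by 0.43 at PDL 52.

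The state of growth and damage in the same libraries is given for reference. CDKN1A, the inhibitor p21 that p53 induces, rose in 7 of 9 comparisons, by 0.56 in HAEC, 0.89 in HUVEC and 2.4 with HRAS, and not in the doxorubicin repeat (0.09, q = 0.877) or at exhaustion of WI-38 (0.26, q = 0.476). Of 20 p53 targets 18 rose in HAEC, 19 in HUVEC, 16 with doxorubicin, 15 with HRAS, 16 and 12 in IMR-90 after 10 Gy and at PDL 52, 8 in irradiated WI-38 and 0 in the doxorubicin repeat and at exhaustion. Of the same list 1 fell in HUVEC, 1 in the repeat and 3 at exhaustion of WI-38. All 16 mitosis genes fell in HAEC, HUVEC, irradiated WI-38 and with doxorubicin in the first set, and 4 of 16 fell in the repeat. With HRAS 15 of 16 fell and 0 rose (median -2.41), and at exhaustion of WI-38 14 of 16 fell and 0 rose (median -1.58). In irradiated IMR-90 15 of 16 rose and 0 fell, with MKI67 at 18.6 ± 1.69 CPM in the PDL 15 controls and 29.7 ± 2.3 after 10 Gy (n = 2 each). At PDL 52 in IMR-90, 7 of the 16 rose, 2 fell and 7 were not called (median 0.10). Of the other lncRNAs listed, PURPL, a p53-induced RNA, rose in all 8 comparisons in which it was tested, by 3.51 in HAEC and 1.53 with HRAS, and DLEU2, the host of miR-15a and miR-16, fell in 7, by 0.49 in HUVEC and 2.75 with HRAS.

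Genes with the most similar pattern were sought among 11331 genes, over the 20 treated libraries, by Pearson's r of log2 CPM less the mean of each library's own controls. These libraries share sets and controls, so r is a description. NEAT1 was closest to TTLL3 (r = 0.962) and NPIPA1 (0.955), MALAT1 to PIK3IP1 (0.874) and CCDC144BP (0.865), and MEG3 to TGFB2 (0.902) and PCDHGB4 (0.895). NORAD was closest to CEP85L (0.943) and RAB33B (0.92), PVT1 to RRS1 (0.901) and GAR1 (0.9), and GAS5 to GAS5-AS1 (0.938), an antisense gene that overlaps 1.16% of its exon length, and TMSB4X (0.892). NPIPA1 and CCDC144BP belong to families of near-identical copies, so their counts are uncertain. H19, MIR31HG and LINC02154 were too low in at least 1 set to enter.

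Between treatments of 1 strain, 1 RNA was higher and 2 were lower after 10 Gy than at PDL 52 in IMR-90, beside 5.12% and 5.45% of all genes (10.6% in all). These were GAS5 (0.25 ± 0.06, q = 0.0217), MEG3 (-0.53 ± 0.07) and MALAT1 (-0.20 ± 0.06, q = 0.0468), of which GAS5 and MALAT1 were lost without either irradiated library (q of 0.137 to 0.440) and GAS5 also without PDL 52 replicate 2 (0.20, q = 0.0610). In WI-38 the response to HRAS was higher than to doxorubicin for 2 RNAs (LINC02154 and MIR31HG) and lower for 3 (NEAT1, MEG3 and MALAT1), beside 21.6% and 14% of all genes (35.6% in all). There 6356 genes were higher and 4105 lower, and 4285 and 5402 with protein-coding scaling. MEG3 differed by -1.27 ± 0.20 (q = 0.000446). Its level was alike in HRAS (156 ± 25.8 CPM) and Dox+ cells (159 ± 7.78), whereas the controls differed (176 in EV, 74.2 in Dox-). NEAT1 stood at 317 CPM with HRAS and 287 in Dox+ cells, with controls at 653 in EV and 144 in Dox-. These differences thus hold the spread between EV and Dox- controls too. In the second WI-38 set the response to irradiation was higher than that to exhaustion for 3 RNAs and lower for 0. The shares over all genes were 4.25% and 2.01% (6.26% in all). The 3 were LINC02154, NEAT1 (1.46 ± 0.26, q = 0.00340) and GAS5. The NEAT1 level itself was lower in irradiated (655 CPM) than in exhausted cells (1021 CPM). Its IR- controls stood at 167 CPM and the proliferating controls at 721 CPM. Between endothelial kinds the response was higher in HUVEC for 2 (LINC02154 and MIR31HG) and lower for 3 (MEG3, MALAT1 and GAS5), beside 8.85% and 9.11% of all genes (18% in all), while all 16 mitosis genes had fallen less in HUVEC than in HAEC.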

How the data were processed

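Total RNA of 37 libraries was sequenced after ribosomal RNA was depleted, per the labels' protocols, which state paired reads of 150 bases for the first library kind. The authors deposited whole-number read counts per gene for each library, not normalized. Tools listed in the submitters' processing notes are STAR 2.4, featureCounts, cutadapt and bcl2fastq, with the build hg19. For the annotation release and the strand setting nothing is given in the sources used here. Symbols came from the gene name table (51996 identifiers) and GENCODE release 29 (52338 in all), and 6 listed genes had no match. Counts were tested with edgeR 4.0.16 in R 4.3.3 (TMM, filterByExpr with a minimum of 10 counts, quasi-likelihood test, Benjamini-Hochberg adjusted p below 0.05) within each set. The SE is the size of the log2 fold change over the square root of F. Whether replicates came from separate cultures is not labelled, and p-values then reflect only the spread among these samples, which may be technical. Replicates differed beyond counting noise (8.5 to 534 chi-square units per degree of freedom). The RNAs and lists were chosen with earlier results of these data known. The genes named are the 9 RNAs in every comparison, the 2 genes of each list called in the same direction most often, 11 fixed partners and the 2 most similar genes per RNA. Some of the genes this rule names are not reported here. SNHG16 and ZFAS1 were added after their values were seen. Alternatives were DESeq2 1.42.0 size factors and its Wald test, no filter, protein-coding scaling, other sets of libraries in the fit, the replicate number as a block and each library left out in turn. The fits were tested on simulated data.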

Additional observations from a re-analysis of the deposited data

Results flagged for a closer look

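The same dose of 4 Gy gave responses that differed between HUVEC and HAEC for 5 of the 9 RNAs, by a test of the difference itself in 1 edgeR fit of both kinds. Over all genes 18% of 30317 were called in this test, 8.85% higher and 9.11% lower in HUVEC. On the log2 scale the HUVEC response minus the HAEC response was -0.44 for MALAT1, -1.60 for MEG3, 0.91 for MIR31HG, -0.39 for GAS5 and 2.06 for LINC02154. The mitosis genes differed in the same contrast, with all 16 fallen less in HUVEC. Their part in these differences was not tested. GAS5 was the only one of the 5 called in opposite directions in the 2 kinds. MEG3 had a control level of 1.38 ± 0.451 CPM in HAEC (n = 2) against 18.5 ± 1.61 in HUVEC (n = 3), so the larger response was in the kind with less of the RNA. The LINC02154 difference rested on HAEC control replicate 1, without which it was 1.19 (q = 0.394). No group of 4 or more libraries was available in which to look for single outlying libraries.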

How the results depend on the processing

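Over the 9 comparisons, the 4 differences and the fibroblast-to-endothelium comparison, values of the RNAs were recomputed under 7 other settings and with each library left out. Outside the left-out libraries, 750 values kept direction and side of the threshold, 11 lost and 18 gained a call and 9 changed sign, and among left-out libraries these numbers were 628, 33, 12 and 33. No called RNA changed sign. Some alternatives equal the fit used and gave no value: the compared groups only for HAEC, HUVEC and 2 of the differences, and all libraries of the kind for the second WI-38 set. For 4 values DESeq2 gave no adjusted p. The count of called RNAs moved by over 1.5 times in 3 places: in irradiated IMR-90, 3 to 4 with a library left out against 6, at exhaustion of WI-38, 1 to 3 against 3, and in the IMR-90 difference, 1 to 3 against 3 and 1 when all libraries of the kind shared a spread. With protein-coding scaling MALAT1 in irradiated IMR-90 became -0.038, NORAD at PDL 52 -0.062, PVT1 with HRAS -0.12, NORAD at exhaustion 0.036 and NORAD in HRAS minus doxorubicin -0.17. NORAD at exhaustion was 0.010 with the compared groups only, and PVT1 in the IMR-90 difference was -0.012 with DESeq2 size factors and with its Wald test, the cause in each case not tested. With a library left out, values not called in the full fit that changed sign ranged as follows, 1 of them, H19 with HRAS at 2.98, passing the threshold (q = 0.0401). H19 ran from -1.72 to 0.40 in HUVEC minus HAEC, -0.022 to 2.63 in irradiated IMR-90, -1.11 to 1.54 at PDL 52, -1.02 to 2.98 with HRAS, -2.30 to 1.70 in HRAS minus doxorubicin, -0.020 to 1.23 at exhaustion and -1.10 to 0.48 between control fibroblasts and endothelium. NORAD ran from -0.11 to 0.24 in HRAS minus doxorubicin, -0.26 to 0.61 in irradiated WI-38, -0.27 to 0.61 in its difference from exhaustion and -0.15 to 0.14 at exhaustion. PVT1 ran from -0.0062 to 0.036 in HUVEC, -0.10 to 0.11 in the IMR-90 difference and -0.035 to 0.29 at exhaustion. MIR31HG ran from -0.11 to 0.080 in the IMR-90 difference, -0.011 to 0.17 in the doxorubicin repeat and -0.75 to 0.31 in irradiated WI-38. At PDL 52 GAS5 ran from -0.14 to 0.013 and NEAT1 from -0.21 to 0.045, and MALAT1 ran from -0.34 to 0.82 in irradiated WI-38.

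The replicate numbers pair nothing by the labels, and deviations of same-numbered libraries correlated at -0.0637 to 0.147. With the number as a block, H19 in HRAS minus doxorubicin became -0.015, NORAD in HUVEC was lost (0.12, q = 0.0507), MALAT1 at exhaustion gained a call (-1.03, q = 0.0472) and so did NEAT1 in the IMR-90 difference (-0.27, q = 0.00995). The block changed no other call of the 9 RNAs. Over all genes, calls moved by over 1.5 times in HUVEC with all libraries of the kind (6893 against 10655), in HUVEC minus HAEC (2223 against 5446) and the IMR-90 difference (1599 against 3095) with the same choice, in the first doxorubicin comparison with the compared groups only (12696 against 7868), in the repeat with DESeq2 (3609 against 1831) or no filter (3135), and in irradiation minus exhaustion with DESeq2 (3534 against 2104) or no filter (3190). Depth limits H19 and the control levels of LINC02154, where a few reads decide a value.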
